A study of Mus musculus with 6 samples.

Results

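The CCN family is a group of secreted, matrix-associated (matricellular) proteins, and 5 of its genes, *Cyr61* (CCN1), *Ctgf* (CCN2), *Nov* (CCN3), *Wisp1* (CCN4) and *Wisp2* (CCN5), were examined among the 26579 genes of a mouse skin RNA-Seq count matrix. The genes were chosen by family membership, with the WT and TG values of *Ctgf* and *Cyr61* already known, so the differences between genotypes given here describe the 5 genes and are not independent evidence about the family. A sixth family gene, *Wisp3* (CCN6), is in the matrix and is given where its counts allow. RNA was taken from whole punch biopsies of dorsal neck skin of 3 YAP2-5SA-∆C transgenic mice (TG) and 3 wild type littermates (WT), all of them female and 33 days of age. TG mice express an activated, C-terminally truncated form of the transcriptional co-activator YAP in the basal keratinocytes of the epidermis, and WT mice carry no transgene. Each library is 1 mouse. The biopsies hold dermis, fat, muscle and hair follicles besides epidermis, so the counts are not those of the cells that express the transgene alone, and in such bulk tissue fewer cells of a type and less RNA per cell cannot be told apart.

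CCN proteins are built from an IGFBP-like module, a von Willebrand factor type C module, a thrombospondin module and, in every member except WISP2, a C-terminal cystine knot. They act through integrins, heparan sulfate proteoglycans and LRP receptors at the cell surface and alter how cells adhere to, remodel and deposit matrix. *Cyr61* and *Ctgf* are the textbook targets of YAP and TEAD, with *Ctgf* also induced by TGF-beta, and in skin both genes are expressed by dermal fibroblasts and vessels as well as by keratinocytes.

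The libraries held 11225705 to 19505036 counts, and the 15102 genes that reached 1 CPM (counts scaled to library size) in 3 or more libraries were tested. The counts on *Yap1*, the gene that the transgene is made from, were 131 ± 9.47 CPM (SD, n = 3) in WT and 136 ± 7.32 CPM (SD, n = 3) in TG, so this check did not separate the genotypes, and it is not known whether transgene reads were counted on the gene. In the edgeR quasi-likelihood fit, 218 genes were higher and 70 lower in TG at a false discovery rate (FDR, Benjamini-Hochberg over all genes tested) below 0.05.

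*Cyr61* (ENSMUSG00000028195, chromosome 3 of GRCm38 from 145646976 to 145649981, minus strand, 5 exons) encodes an integrin ligand that is switched on within minutes to hours of growth factor or mechanical stimulation. It is the only member with an entry in the RefSeq promoter table of 32851 promoters (GRCm38.p6). Its promoter is shown because YAP acts on DNA through TEAD factors. The 300 bases at chr3:145649936-145650235, read along the minus strand from 250 bases before to 50 bases after the RefSeq start site, are given with the TEAD core motif GGAATG, which is read here on the opposite strand as CATTCC, in capitals.
Cyr61: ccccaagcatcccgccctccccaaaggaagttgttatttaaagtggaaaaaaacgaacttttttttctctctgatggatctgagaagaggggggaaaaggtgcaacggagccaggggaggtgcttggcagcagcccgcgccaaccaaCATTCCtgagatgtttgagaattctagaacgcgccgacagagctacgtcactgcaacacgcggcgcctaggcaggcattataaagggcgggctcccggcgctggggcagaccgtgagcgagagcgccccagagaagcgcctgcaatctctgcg
The motif occurs 1 time, with its first base at -103 from the start site, and 14.7% of all promoters in the table hold GGAATG on either strand. A TATA box (TATAAA) lies at -25 and is held by 13.6% of promoters, and the SMAD core CAGAC occurs 1 time against 49.6% of promoters with a match. The AP-1 motif TGANTCA (7.81% of promoters) and the CArG box bound by SRF (1.63% of promoters) had 0 matches in this window. These matches describe letters and not occupied sites.

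In CPM after TMM scaling, *Cyr61* stood at 9.40, 9.94 and 9.32 in WT replicates 1, 2 and 3 and at 11.7, 12.2 and 12.9 in TG replicates 1, 2 and 3. All TG libraries lay above all WT libraries. The mean was 9.56 ± 0.338 CPM (SD, n = 3) in WT and 12.3 ± 0.598 CPM (SD, n = 3) in TG. The log2 fold change of 0.36 (standard error 0.09, 95% interval 0.15 to 0.57), a 1.28-fold difference, missed the threshold in edgeR's quasi-likelihood test with Benjamini-Hochberg adjustment (FDR 0.0679).

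*Ctgf* (ENSMUSG00000019997, chromosome 10 from 24595442 to 24598683, plus strand, 4 exons in its longest transcript) encodes the family's best known inducer of matrix production. It stood at 24.5, 24.6 and 26.4 CPM in WT replicates 1, 2 and 3 and at 15.0, 12.2 and 15.3 CPM in TG replicates 1, 2 and 3. The groups did not overlap, and TG replicate 2 was the lowest library. The mean was 25.1 ± 1.06 CPM (SD, n = 3) in WT and 14.2 ± 1.69 CPM (SD, n = 3) in TG. *Ctgf* was lower in TG by 1.77-fold, with a log2 fold change of -0.82 (standard error 0.10, 95% interval -1.07 to -0.58) and an FDR of 0.0327 by the quasi-likelihood test of edgeR. Only 3.46% of the genes tested had a lower log2 fold change, and *Ctgf* ranked 44 by p-value. The call was not stable to leaving out libraries: leaving out any library except TG replicate 2 raised the FDR to between 0.0511 and 0.177, with the log2 fold change between -0.88 and -0.78. Without TG replicate 2, the log2 fold change was -0.71 and the FDR 0.0131. An antisense transcript, *Gm15270*, overlaps *Ctgf* on the other strand and is the leading gene among those that share 19.7% of its 31-base exon words. *Gm15270* had 0.250 to 0.825 CPM in the 6 libraries and did not pass the filter. Whether the counting used strand is not given in the sources used here.

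*Nov* (ENSMUSG00000037362, chromosome 15 from 54745702 to 54754039, plus strand, 5 exons) encodes a member that often restrains growth and binds NOTCH1. Its values were 6.16, 5.65 and 6.28 CPM in WT replicates 1, 2 and 3 and 6.51, 7.53 and 9.24 CPM in TG replicates 1, 2 and 3. The groups did not overlap, although TG replicate 1 was close to the highest WT library, and the TG libraries were spread more widely. The mean was 6.03 ± 0.332 CPM (SD, n = 3) in WT and 7.76 ± 1.38 CPM (SD, n = 3) in TG. On the log2 scale TG differed from WT by 0.36 (standard error 0.15, 95% interval 0.0085 to 0.72), and edgeR's quasi-likelihood test gave an FDR of 0.181. Without TG replicate 3 the log2 fold change was 0.22.

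*Wisp1* (ENSMUSG00000005124, chromosome 15 from 66891320 to 66923201, plus strand) was named as a gene induced by WNT1 signalling. Its values were 20.8, 17.9 and 17.5 CPM in WT replicates 1, 2 and 3 and 19.0, 14.9 and 16.0 CPM in TG replicates 1, 2 and 3. The groups overlapped, because TG replicate 1 lay above WT replicates 2 and 3. The mean was 18.8 ± 1.81 CPM (SD, n = 3) in WT and 16.6 ± 2.13 CPM (SD, n = 3) in TG. The log2 fold change of -0.17 (standard error 0.12, 95% interval -0.46 to 0.11) was not distinguishable from 0 (FDR 0.395 in edgeR's quasi-likelihood test). It was -0.09 without WT replicate 1 and -0.08 without TG replicate 2.

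*Wisp2* (ENSMUSG00000027656, chromosome 2 from 163820861 to 163833146, plus strand) encodes the member without the C-terminal knot, which restrains smooth muscle cell growth. It stood at 5.55, 4.45 and 4.76 CPM in WT replicates 1, 2 and 3 and at 5.45, 8.41 and 7.68 CPM in TG replicates 1, 2 and 3. TG replicates 2 and 3 were the highest libraries, whereas TG replicate 1 lay just under WT replicate 1, so the groups overlapped. The mean was 4.92 ± 0.569 CPM (SD, n = 3) in WT and 7.18 ± 1.54 CPM (SD, n = 3) in TG. The log2 fold change of 0.54 (standard error 0.19) was the highest of the 5 genes but missed the threshold (edgeR quasi-likelihood FDR 0.131). *Wisp2* had the fewest counts, down to 50 in WT replicate 3, for which an exact Poisson interval runs from 37.1 to 65.9 counts and covers counting error only.

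*Wisp3* (ENSMUSG00000062074, chromosome 10 from 39150970 to 39163794, minus strand) had 0, 2 and 0 counts in WT replicates 1, 2 and 3 and 2, 1 and 0 counts in TG replicates 1, 2 and 3. No library reached 3 counts, which correspond to 0.154 to 0.267 CPM, so *Wisp3* was not detectable at this depth and was not tested.

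**Figure D1:**
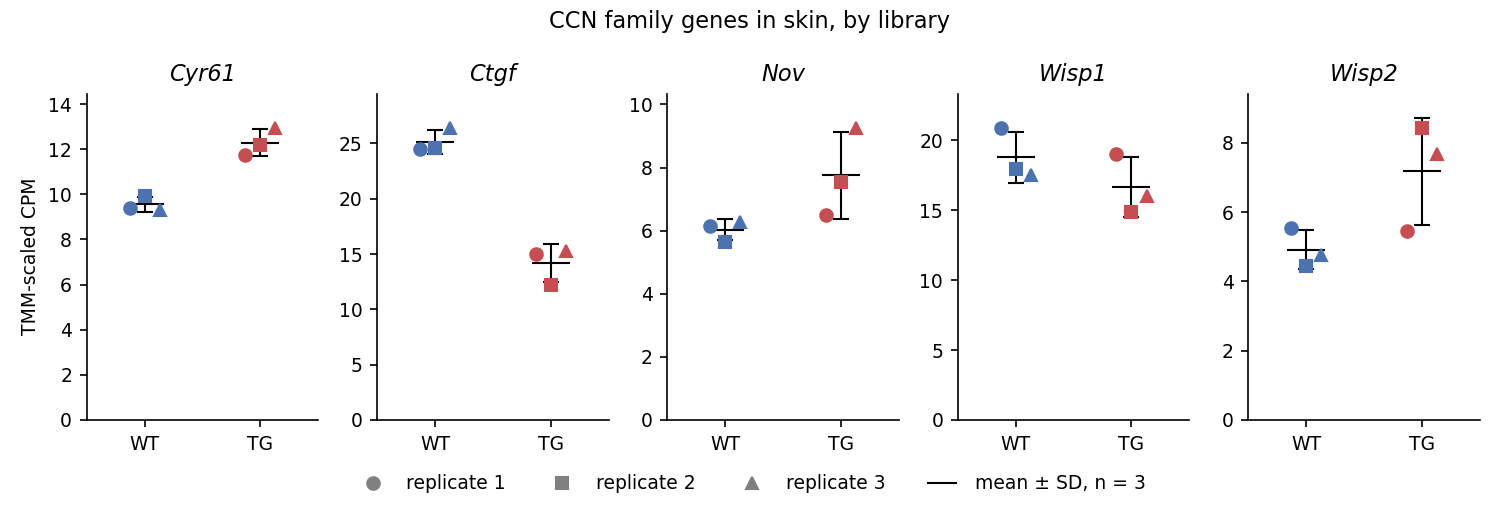
TMM-scaled CPM (y axes, each from 0) of the 5 CCN genes in the 3 WT and 3 TG libraries, with 1 point per mouse and the mean ± SD of each group. *Ctgf* lies at 24.5 to 26.4 CPM in WT and 12.2 to 15.3 CPM in TG, while the TG points of *Cyr61* (11.7 to 12.9 CPM) lie above its WT points (9.32 to 9.94 CPM).

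All 5 genes passed the filter, and 1 of them, *Ctgf*, was called, against 1.91% of all genes tested. The libraries of WT and TG did not overlap in 3 of the 5 genes (*Cyr61*, *Ctgf* and *Nov*), against 33.8% of all genes. In 4 of the 5, all except *Wisp1*, the unadjusted p of edgeR's quasi-likelihood test was below 0.05, against 26.3% of all genes. That count was 2 of 5 without WT replicate 2, WT replicate 3, TG replicate 2 or TG replicate 3. In those fits, 18.2% to 24.7% of all genes had such a p. The count was 3 of 5 by the likelihood-ratio test, voom and DESeq2, against 19.98%, 26.4% and 21.5% of all genes, respectively. Because the members were picked with these genotypes in view, nothing is read from those shares. The fitted values pointed up in 3 genes and down in 2, with a median log2 fold change of 0.36 against -0.01 over all genes tested, and only the direction of *Ctgf* passed the test.

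**Figure D2:**
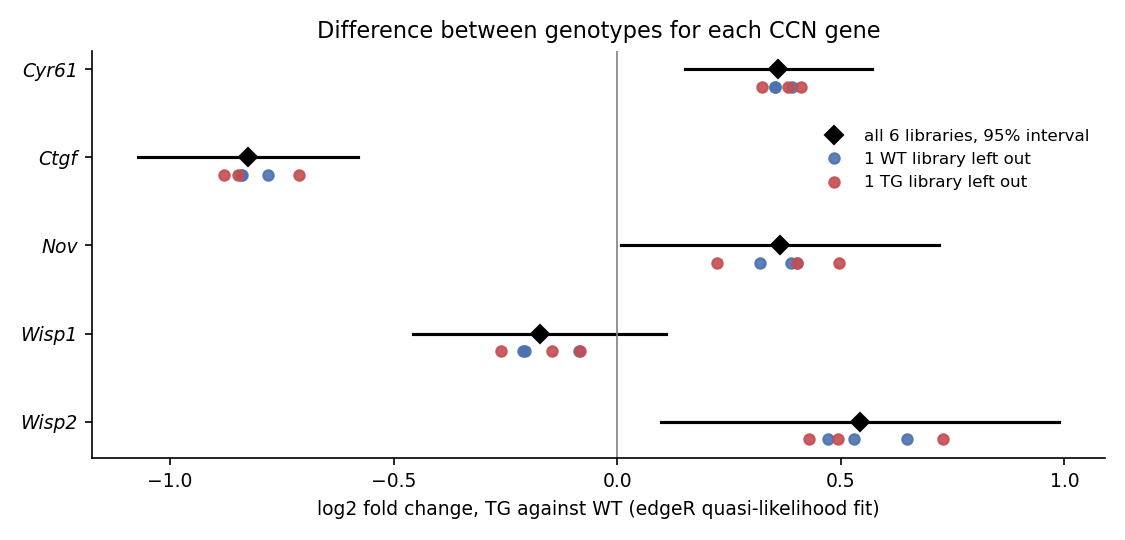
Log2 fold change of each CCN gene, TG against WT (x axis), from the edgeR quasi-likelihood fit, as a diamond with its 95% interval for all 6 libraries and as circles for the 6 fits that each leave out 1 library. The intervals of *Ctgf* (-1.07 to -0.58) and *Cyr61* (0.15 to 0.57) lie on opposite sides of 0, and no fit that leaves out a library changes the direction of a gene.

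Levels were compared between the genes as RPKM, the TMM-scaled CPM divided by the length of the joined exons in kilobases. The order in every WT library was *Ctgf*, *Cyr61*, *Wisp1*, *Wisp2* and *Nov*. *Ctgf* led with 8.79 ± 0.369 RPKM (SD, n = 3) in WT and stood at 4.96 ± 0.590 RPKM in TG. *Cyr61* stood at 4.73 ± 0.167 RPKM in WT and 6.08 ± 0.296 RPKM in TG, and it was first in every TG library. That rank depends on the length used, since with the length of the longest transcript *Ctgf* was first in TG replicate 1 and above *Wisp2* in TG replicate 2, while the order in the WT libraries was unaltered. *Wisp1* was at 3.37 ± 0.325 and 2.99 ± 0.384 RPKM, *Wisp2* at 2.56 ± 0.296 and 3.73 ± 0.802 RPKM, and *Nov* at 2.10 ± 0.116 and 2.70 ± 0.481 RPKM in WT and TG, respectively. These are middling levels for skin, since between 29.9% (*Nov*) and 61.3% (*Ctgf*) of the genes tested had a lower mean RPKM. The order below *Cyr61* differed among the TG mice, with *Wisp2* above *Ctgf* in replicate 2 and *Nov* above *Wisp1* in replicate 3.

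Neighbours in the order of the mean RPKM were compared within the 6 libraries by a two-sided exact permutation test (sign flips), whose smallest p is 0.03125 and which was adjusted over the 4 pairs. *Cyr61* was above *Wisp1* in 6 of 6 libraries, by 0.74 ± 0.33 (SD, n = 6) on the log2(RPKM + 0.1) scale, and *Wisp2* was above *Nov* in 6 of 6, by 0.35 ± 0.20 (SD, n = 6). Both pairs gave the smallest p, 0.03125 in the exact test and 0.0625 after adjustment. *Ctgf* was above *Cyr61* in 3 of 6 libraries (exact p = 0.3125, adjusted 0.417), which are the 3 WT libraries. *Wisp1* was above *Wisp2* in 4 of 6 libraries, by 0.05 on average (exact p = 0.8125), and this mean pools opposite orders: *Wisp1* was higher in all 3 WT libraries and in TG replicate 1, and *Wisp2* in TG replicates 2 and 3.

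The ratio of *Cyr61* to *Ctgf* in RPKM uses 2 genes of the same library and therefore does not depend on library scaling. It was 0.545, 0.573 and 0.501 in WT replicates 1, 2 and 3 and 1.11, 1.41 and 1.20 in TG replicates 1, 2 and 3. With these joined-exon lengths, *Cyr61* was below *Ctgf* in every WT library and above it in every TG library. With the length of the longest transcript, the ratio was 0.964 in TG replicate 1, where *Cyr61* was then below *Ctgf*, and 1.23 and 1.04 in TG replicates 2 and 3, against 0.436 to 0.499 in WT. The mean ratio was 0.540 ± 0.0360 (SD, n = 3) in WT and 1.24 ± 0.156 (SD, n = 3) in TG, a 2.29-fold difference in the geometric mean, in which gene length cancels. This ratio was taken from the contrast that the genes were picked on and is given without a test.

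The RPKM of the 5 genes summed to 21.5 ± 0.482 (SD, n = 3) in WT and 20.5 ± 1.20 (SD, n = 3) in TG, with overlapping ranges of 21.0 to 22.0 and 19.6 to 21.8 RPKM. Summed as CPM, without regard to length, they did not overlap, at 64.4 ± 1.91 CPM (SD, n = 3; 62.6 to 66.4) in WT and 58.0 ± 2.97 CPM (SD, n = 3; 55.2 to 61.2) in TG. *Ctgf* made up 40.8 ± 1.84% of the summed RPKM in WT and 24.2 ± 2.71% in TG. The share of *Cyr61* was 22.0 ± 1.25% in WT and 29.7 ± 0.443% in TG, and that of *Wisp2* was 11.8 ± 1.13% and 18.2 ± 3.71%. *Nov* took 9.75 ± 0.374% and 13.2 ± 1.58%, whereas *Wisp1* took 15.6 ± 1.27% and 14.7 ± 2.41%. Shares of a sum are tied to each other, since they add up to the whole.

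**Figure D3:**
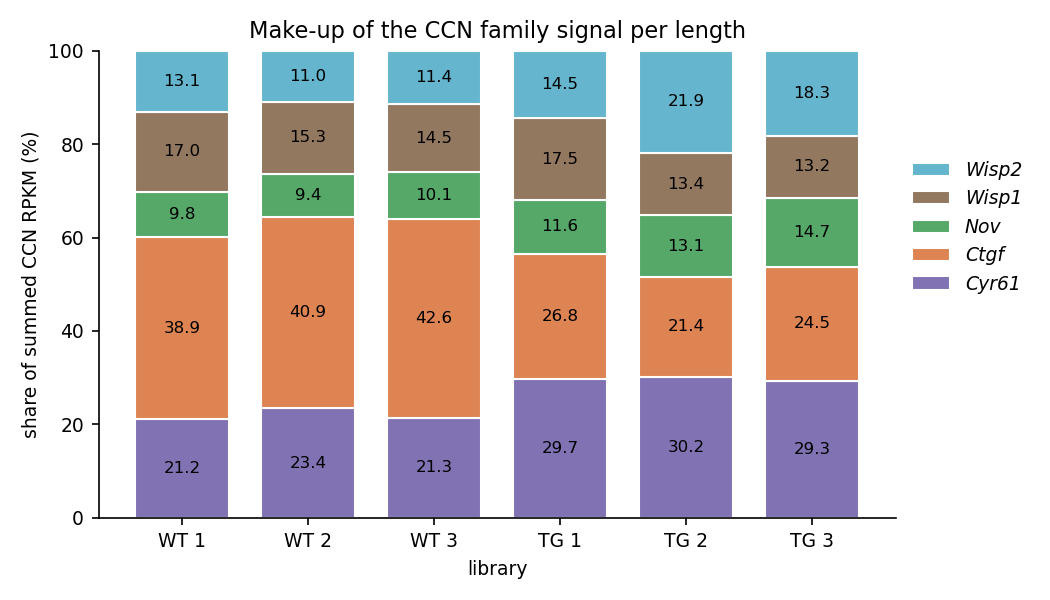
Share of the summed RPKM (y axis, percent) taken by each CCN gene in each library (x axis). *Ctgf* takes 38.9% to 42.6% in the WT libraries and 21.4% to 26.8% in the TG libraries, and *Cyr61* takes 21.2% to 23.4% and 29.3% to 30.2%.

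Marker genes of the cell types of skin were summed as CPM in the same libraries. Such sums are weighted to the most abundant markers, and they do not separate cell numbers from RNA per cell. Over all single genes, 1.91% were called and 33.8% did not overlap between the groups. Basal keratinocyte markers (7 genes, 7 with a log2 fold change above 0, of which *Krt14* was called) summed to 3593 to 4358 CPM in WT and 5903 to 7540 CPM in TG. Macrophage markers (6 of 6 above 0, with *Csf1r* and *Mrc1* called) summed to 385 to 459 CPM in WT and 575 to 634 CPM in TG. The sums of suprabasal keratinocyte markers (5 of 5 above 0), endothelial markers (7 of 7 above 0) and sebaceous gland markers (3 of 4 above 0) also did not overlap between the groups and were higher in TG, with ranges of 4294 to 5129 against 5356 to 9595 CPM, 124 to 139 against 147 to 172 CPM, and 89.1 to 147 against 159 to 202 CPM. Some single markers of each of these lists did overlap. The unadjusted p of the quasi-likelihood test was below 0.05 for 1 suprabasal, 3 endothelial and 3 sebaceous markers, against 26.3% of all genes. Hair shaft and inner root sheath markers (6 of 6 below 0) summed to 9185 to 11194 CPM in WT and 1011 to 6424 CPM in TG. The lowest sum was in TG replicate 2. That library, which is 1 mouse, also had the highest basal keratinocyte, suprabasal keratinocyte and fibroblast sums, the lowest *Ctgf* and the highest *Wisp2*. Fibroblast markers (7 of 7 above 0) summed to 9642 to 12978 CPM in WT and 12438 to 16157 CPM in TG and overlapped, and so did the sums for smooth muscle and pericytes, skeletal muscle, adipocytes and dermal papilla. Skeletal muscle markers (7 of 7 below 0) ranged from 1271 to 6763 CPM within WT alone. The part of these shifts in the values of the CCN genes was not tested.

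The genes that surround the family were taken as lists, each read against the median log2 fold change of -0.01 over all genes tested. Of 20 conserved YAP/TAZ targets outside the CCN family, 18 passed the filter, 0 were called higher and 1 lower (against 1.91% of all genes called), with 9 values above 0 and 9 below and a median log2 fold change of 0.01. The called gene was *Nt5e*, the ectonucleotidase CD73, which stood at 48.5, 51.9 and 51.2 CPM in WT and 39.0, 35.9 and 39.3 CPM in TG (log2 fold change -0.41, standard error 0.06, FDR 0.0414 in edgeR's quasi-likelihood test). Leaving out any library except TG replicate 2 left 0 targets called. Over all genes, those fits called 142 without WT replicate 1, 86 without TG replicate 1 and 0 without each of the others, against 816 without TG replicate 2. The unadjusted p was below 0.05 for 4 higher and 5 lower targets, against 26.3% of all genes. Without WT replicate 2, it was below 0.05 for 0 higher and 5 lower targets, against 18.2% of all genes. Each other fit without 1 library gave 3 to 4 higher and 4 to 5 lower targets. The likelihood-ratio test and the fit with the replicate number as a block each gave 1 higher and 5 lower.

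Of the 16 receptors and co-receptors of CCN proteins, 1 was called higher and 1 lower, against the same 1.91% of all genes. The unadjusted p was below 0.05 for 6 higher and 2 lower receptors, against 26.3% of all genes, and the median log2 fold change was 0.11. *Itgb2*, the beta chain of leukocyte integrins that bind CYR61 and CTGF, was at 13.0, 14.1 and 13.4 CPM in WT and 20.8, 21.0 and 21.4 CPM in TG (log2 fold change 0.64, standard error 0.07, FDR 0.0300 in edgeR's quasi-likelihood test). The macrophage markers given above were higher in the same libraries, and their part in the value of *Itgb2* was not tested. *Notch1*, which encodes the receptor that NOV binds, was at 336, 323 and 319 CPM in WT and 242, 228 and 254 CPM in TG (log2 fold change -0.44, standard error 0.06, FDR 0.0398). For both genes, every TG library lay outside the WT range. The number of receptors called was 4 without TG replicate 2, 1 without WT replicate 1 and 0 without each of the other libraries. Over all genes, 816 were called without TG replicate 2, 142 without WT replicate 1 and 86 without TG replicate 1. With 0 genes called overall without WT replicate 2, WT replicate 3 or TG replicate 3, those fits could call no receptor. *Nov* itself had a higher mean in TG, which missed the threshold.

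The 10 regulators of CCN promoters were YAP/TAZ, TEAD, SRF and MRTF genes and a VGLL gene. Of these, 0 were called by edgeR's quasi-likelihood test, against 1.91% of all genes, and also 0 by the edgeR likelihood-ratio test, voom and DESeq2. The unadjusted p was below 0.05 for 1 gene, *Tead4*, a TEAD factor (log2 fold change 0.43, FDR 0.138), against 26.3% of all genes, and the next lowest p belonged to *Tead1* (0.30, FDR 0.238). Of 12 genes of the TGF-beta to SMAD axis, which induces *Ctgf*, 0 were called by the quasi-likelihood test or voom, 3 by the likelihood-ratio test and 4 by DESeq2, which called 1568 and 1583 of all genes. The unadjusted p of the quasi-likelihood test was below 0.05 for 3 higher and 1 lower gene, against 26.3% of all genes. The inhibitory *Smad7* was at 22.3, 29.3 and 25.8 CPM in WT and 16.1, 13.2 and 18.9 CPM in TG (log2 fold change -0.68, FDR 0.0620 in edgeR's quasi-likelihood test). All TG libraries lay below all WT libraries, but the difference missed the threshold.

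IGF-binding proteins share the N-terminal module of the CCN proteins, and 6 of 7 were in the matrix and tested. None was called by edgeR's quasi-likelihood test or voom, and 1 each by the likelihood-ratio test and DESeq2. Of all 15102 genes, 1.91% were called by the quasi-likelihood test, 1568 genes by the likelihood-ratio test and 1583 by DESeq2. The unadjusted p of the quasi-likelihood test was below 0.05 for 1 IGF-binding protein, against 26.3% of all genes. That count was 3 without WT replicate 1 (25.7% of all genes) and 0 without WT replicate 2 (18.2% of all genes). *Igfbp3*, which is also on the list of YAP/TAZ targets, had a log2 fold change of 0.66 (FDR 0.131) and *Igfbp6* of -0.32 (FDR 0.309 in edgeR's quasi-likelihood test).

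**Figure D4:**
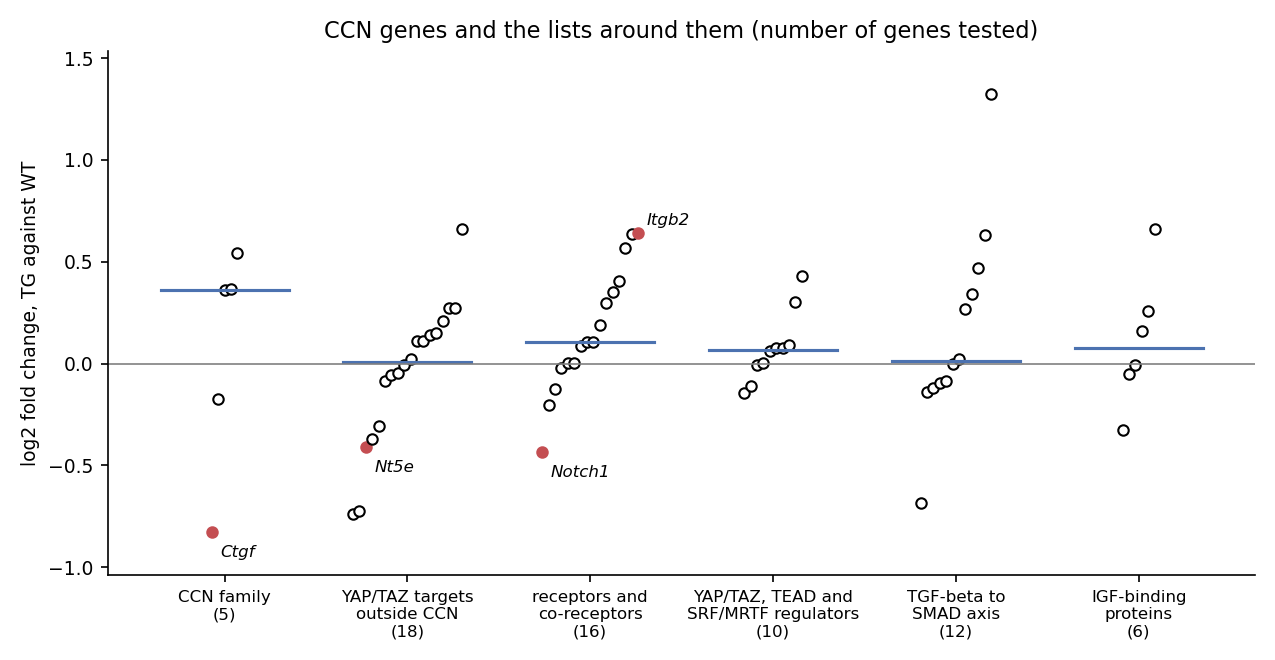
Log2 fold change, TG against WT (y axis), of the CCN genes and of the genes of 5 lists (x axis, number tested in brackets), with filled points for genes called by the quasi-likelihood test of edgeR (FDR 0.05) and a line at each median. *Ctgf* (-0.82), *Nt5e* (-0.41), *Notch1* (-0.44) and *Itgb2* (0.64) are the called genes.

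The protein-coding genes whose log2 CPM followed each member most closely over the 6 libraries were sought among 13891 genes, as a description that includes the difference between genotypes. *Ctgf* was followed by *Akirin2* (Pearson r = 0.998), *Ctbp2* (0.995) and *Il1f10* (0.993). *Il1f10*, an interleukin-1 family cytokine of the epidermis, had 8.16 ± 0.452 CPM in WT and 3.45 ± 0.849 CPM in TG (SD, n = 3; log2 fold change -1.24, FDR 0.0401 in edgeR's quasi-likelihood test). *Cyr61* was followed by *Cyb5b* (0.998), *Il10rb* (0.997) and *Cd48* (0.996), of which *Cd48* is a leukocyte surface protein. The genes closest to *Nov* were *Eaf2* (0.995), *Syt13* (0.994) and *Txn2* (0.992), and those closest to *Wisp1* were *Wtap* (0.994), *Tm7sf3* (0.994) and *Cog5* (0.991). *Wisp2* was closest to *Aggf1* and *Tor1aip2* (0.996 each). No named gene appeared for more than 1 member, and no member was among the 3 closest genes of another. Lists of 3 among 13891 genes are too short to show whether members vary together. With 6 libraries, r above 0.9 was common, being reached by 1088 genes for *Ctgf*, 526 for *Wisp2*, 467 for *Cyr61*, 186 for *Wisp1* and 122 for *Nov*.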

How the data were processed

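The data are RNA-Seq libraries of dorsal neck skin from 3 WT and 3 TG mice, deposited by the authors as raw counts for each Ensembl gene. Per the labels and the study's methods, reads were mapped to GRCm38 with Tophat2 and Bowtie2, and uniquely mapped reads were counted with HTSeq-count. The Tophat2 version is 2.0.12 in the submitters' processing notes, which differs from that in the methods. The annotation release and strand setting are not given in the sources used here. The labels name a total RNA kit and the methods mRNA libraries. Names, positions and exon lengths were taken from GENCODE M21, in which 558 of 26579 identifiers are absent.

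Counts were filtered (at least 1 CPM in at least 3 libraries), scaled by TMM and tested with edgeR 4.0.16 (glmQLFit, glmQLFTest) in R 4.3.3, with genotype as the only term and Benjamini-Hochberg adjustment at 0.05. The standard error was the size of the log2 fold change divided by the square root of F, and 95% intervals follow from the test's own p-value. The analysis was repeated with voom (limma 3.58.1), DESeq2 1.42.0 and the likelihood-ratio test, with other filters, with upper-quartile or RLE scaling, with the replicate number as a block, and without each library in turn, and levels per length also with the longest transcript or a pseudocount of 1. Mitochondrial ribosomal RNAs took 17.2% to 20.4% of the counts, and 1 gene (ENSMUSG00000045999) took 5.27% in WT replicate 3. The members and lists were chosen with earlier results of these data known. Genes named are the members, *Wisp3*, list genes with an FDR below 0.05 (otherwise the 2 with the lowest p) and the 3 genes most alike to each member, of which 2 that this rule names are not reported here. The littermates are separate animals.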

Additional observations from a re-analysis of the deposited data

How the results depend on the processing

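*Cyr61*, *Nov*, *Wisp1* and *Wisp2* kept their direction and stayed above the FDR threshold in all 14 alternatives. Leaving out single libraries gave log2 fold changes of 0.32 to 0.41 for *Cyr61*, 0.22 to 0.50 for *Nov*, -0.26 to -0.08 for *Wisp1* and 0.43 to 0.73 for *Wisp2*. *Ctgf* stayed lower in all 14, and it was called under both other scalings, both other filters and the 3 other tests. Leaving out 1 library gave -0.88 (without TG replicate 3) to -0.71 (without TG replicate 2), and the number of CCN genes called was then 0 to 1. *Ctgf* was not called without WT replicate 1 (FDR 0.0511), WT replicate 2 (0.177), WT replicate 3 (0.132), TG replicate 1 (0.0577) or TG replicate 3 (0.0906). Over all genes the calls also dropped from 288 to 142, 0, 0, 86 and 0 in those fits and rose to 816 without TG replicate 2.

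With the replicate number as a block, the log2 fold change of *Ctgf* was -0.83 (FDR 0.153), and 0 CCN genes, 0 YAP/TAZ targets, 0 receptors and 0 genes overall were called by edgeR's quasi-likelihood test, with 2949 genes at an unadjusted p below 0.05 and 2 of them CCN genes. Deviations of same-numbered libraries from their group means had r = -0.33, -0.23 and -0.05. With means of 3 libraries, these values cannot show whether the numbers pair mice.

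The likelihood-ratio test and DESeq2 called 1568 and 1583 genes overall. They called 4 and 5 YAP/TAZ targets, 4 and 6 receptors, 3 and 4 genes of the TGF-beta axis and 1 and 1 IGF-binding proteins. Leaving out 1 library gave 0 to 1 YAP/TAZ targets, 0 to 4 receptors and 0 to 1 genes of the TGF-beta axis, with the highest count in each case without TG replicate 2.

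In the order of levels, the difference between *Wisp1* and *Wisp2* ran from -0.036 to 0.19 and changed sign without WT replicate 1 (-0.017), WT replicate 2 (-0.036) or WT replicate 3 (-0.011). *Cyr61* stayed above *Wisp1* by 0.61 to 0.83 over all 8 alternatives (0.66 to 0.83 without 1 library) and *Wisp2* above *Nov* by 0.27 to 0.51 (0.28 to 0.39 without 1 library), where 5 libraries allow no exact p under 0.0625. With the longest transcript as length, the mean ratio of *Cyr61* to *Ctgf* moved by more than its SD, to 0.470 in WT and 1.08 in TG. The log2 difference of that ratio between genotypes, in which length cancels, ran from 1.10 to 1.27 without 1 library. Counts of 50 to 143 for *Wisp2* and 66 to 148 for *Nov* limit the precision of these genes.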
